A study of Homo sapiens with 8 samples.

Results

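Aldo-keto reductases are cytosolic enzymes that use NADPH to reduce aldehydes and ketones, among them sugars, products of lipid peroxidation, retinaldehyde, steroids and prostaglandins. Several of their genes are known targets of NRF2, the transcription factor of the oxidative stress response, and AKR1B10 is known for its high level in hepatocellular carcinoma. The genes described here are AKR1A1, AKR1B1, AKR1B10, AKR1C1, AKR1C2, AKR1C3 and AKR7A2, which were chosen by name: all 7 of the listed symbols were in the table of 11818 genes.

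Poly(A) RNA of HCCLM3, an established hepatocellular carcinoma cell line, was sequenced to ask what silencing of circPTK2, a circular RNA of the PTK2 locus, changes downstream. The 4 siRNA libraries carry the genotype label of a circPTK2 knock down and came from cells transiently transfected with an siRNA against that RNA. The 4 NC libraries carry the genotype label WT, and whether these cells received a control siRNA is not given in the sources used here. The transfection text stands on the labels of both groups. Whether replicates were separate cultures is not stated, and a p-value here then reflects library spread alone, possibly technical. All cells are of 1 line, and the time between transfection and harvest is not given in the sources used here.

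Recovered reads ran from 28077305 to 32532669 in the siRNA libraries and from 37087203 to 43512175 in the NC libraries. The siRNA libraries lay close together (Spearman correlation across genes of 0.9899 to 0.9953). Replicates 1 with 2 (0.995) and 3 with 4 (0.9953) were slightly closer than siRNA libraries across these pairs (0.9899 to 0.9936). The NC libraries fell into the same pairs by a wider margin, with 0.985 to 0.987 within pairs and 0.919 to 0.938 between them. PTK2 mRNA, which does not measure the circular RNA, ranged from 204 to 219 in the siRNA libraries and from 161 to 227 in the NC libraries (log2 change 0.21, limma adjusted p = 0.167), and it passed without NC replicate 2 (limma adjusted p = 0.0153). Of 15 hepatocyte lineage markers 11 were tested, of which 3 rose and 5 fell; 72.7% thus passed, against 42.5% of all genes tested. With only genes of a mean signal of at least 5 tested, AFP, APOB and SERPINA1 were not tested, and the other 5 that had passed still did. In that fit 4414 of 10303 genes passed. Albumin mRNA (ALB) was low but rose, at 32.0 ± 6.05 in siRNA and 9.20 ± 1.18 in NC libraries (SD, n = 4 each), and SERPINA1 also rose (5.49 ± 1.30 in siRNA, 0.116 ± 0.0884 in NC libraries). The fibrinogen gene FGB (0.578 ± 0.0700 in siRNA, 23.7 ± 12.3 in NC libraries) and the transferrin gene TF (5.86 ± 0.710 in siRNA, 20.4 ± 4.62 in NC libraries) fell. The hepatocyte regulator gene HNF4A, named after its values were seen, ranged from 47.6 to 61.5 in siRNA and from 26.5 to 34.3 in NC libraries. APOA1, APOA2, TTR and GPC3 are not analysed here. Of 8 blood and endothelial and 8 fibroblast and stellate markers, only PECAM1 (3.25 to 4.93 in siRNA, 7.53 to 19.8 in NC libraries) and LUM (15.5 to 25.5 in siRNA, 20.3 to 64.0 in NC libraries) were tested. PECAM1 fell and LUM did not pass, and the part of either cell type in the results below was not tested.

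AKR1C1, AKR1C2 and AKR1C3 are near-identical copies that lie side by side on chromosome 10 (GENCODE 29, GRCh38). AKR1C1 spans 4963253 to 4983283 on the plus strand, AKR1C2 spans 4987400 to 5018031 on the minus strand, and AKR1C3 spans 5035354 to 5107686 on the plus strand. Each has a coding sequence of 969 bases in 9 coding exons. AKR1C1 and AKR1C2 were identical at 98.0% of coding bases and differed at 19, of which 10 fell in the stretch of 60 bases shown next. AKR1C1 and AKR1C3 were identical at 91.4%, and AKR1C2 and AKR1C3 at 91.0%. The stretch, coding positions 103 to 162 counted from the start codon, is the one within a single exon that holds the most positions where the copies are not all alike. It is shown because such positions let a read be given to 1 copy. Capitals mark the 15 positions at which the copies are not all the same; the sequences come from GENCODE transcripts and lie at chr10:4965932-4965991 (plus strand), chr10:5001604-5001663 (minus strand) and chr10:5096428-5096487 (plus strand).
AKR1C1: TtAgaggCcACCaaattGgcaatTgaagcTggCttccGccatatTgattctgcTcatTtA
AKR1C2: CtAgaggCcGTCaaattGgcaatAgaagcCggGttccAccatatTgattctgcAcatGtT
AKR1C3: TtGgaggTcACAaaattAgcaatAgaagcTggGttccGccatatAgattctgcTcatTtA

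Of the 820 windows of 150 bases, the read length, in each coding sequence, 38 in AKR1C1 (4.63%), 60 in AKR1C2 (7.32%) and 22 in AKR1C3 (2.68%) occurred unchanged in a transcript of another of these copies. None of the windows in AKR1A1, AKR1B1, AKR1B10 or AKR7A2 occurred unchanged in a transcript of another gene. Only whole coding windows without a mismatch were searched. The sources used here do not give how reads that matched several copies were counted, and AKR1C2 also overlaps an antisense gene that is not analysed here, so the split among AKR1C1, AKR1C2 and AKR1C3 is uncertain and their sum is given as well.

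AKR1C1 and AKR1C2 also have near-identical bases before a RefSeq transcript start. RefSeq promoters (GRCh38.p14) were matched for 6 of the 7 genes by symbol, with 9 entries; AKR1B10 had no entry. These RefSeq starts differ from the outer GENCODE ends given above, so the AKR1C2 stretch and most of the AKR1C1 stretch lie within the GENCODE gene spans. The bases before the RefSeq start of AKR1C1 and of AKR1C2 aligned over 246 columns with 1 difference, an identity of 99.6%, and are shown for that likeness. The promoter entries of AKR1C3 were not aligned with them. The part of these bases in the values below was not tested. Capitals mark the column that differs; the stretches are chr10:4963169-4963414 (plus strand) and chr10:5003862-5004107 (minus strand).
AKR1C1: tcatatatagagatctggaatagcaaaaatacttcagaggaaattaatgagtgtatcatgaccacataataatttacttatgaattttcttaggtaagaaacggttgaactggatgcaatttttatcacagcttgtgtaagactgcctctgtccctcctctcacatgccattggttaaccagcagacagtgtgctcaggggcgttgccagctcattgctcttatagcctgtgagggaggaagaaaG
AKR1C2: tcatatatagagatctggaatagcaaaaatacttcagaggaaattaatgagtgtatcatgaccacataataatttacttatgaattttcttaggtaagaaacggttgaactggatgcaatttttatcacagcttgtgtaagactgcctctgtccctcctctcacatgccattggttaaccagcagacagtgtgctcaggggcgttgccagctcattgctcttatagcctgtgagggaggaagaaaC

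The antioxidant response element, the DNA motif of NRF2, was searched in the 250 bases before each RefSeq start as TGACNNNGC on both strands. It was found in 10.9% of all 35116 promoters. Among the 6 genes only AKR7A2 held it, with 3 matches in each of its entries; the entries overlap each other. No match in the other windows says only that these letters are not there.

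Values below are the deposited read signal, scaled per library. Changes are log2 differences of siRNA minus NC on log2(signal + 1) with limma's standard error (SE), and p-values are Benjamini-Hochberg adjusted over all 11812 genes tested, with 0.05 as the threshold. Of the 7 aldo-keto reductase genes 4 fell in the siRNA libraries, namely AKR1B10, AKR1C1, AKR1C2 and AKR1C3, and none rose. Across all genes tested 20.8% fell, 21.7% rose and 42.5% changed in either direction. In 5 of the 7 genes every siRNA library lay below every NC library, which held for 20.9% of all genes tested, while the groups did not overlap in either direction for 43.3%. The median log2 change was -0.50 over the 7 genes and 0.012 over all genes tested. Together the 7 genes took 0.618% to 0.657% of the signal of the siRNA libraries and 0.938% to 1.16% of that of the NC libraries. In bulk RNA, fewer cells that express a gene and less RNA per cell cannot be told apart. Members passed the filter on low values without exception, with at least 390 reads for each in every library.

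**Figure D1:**
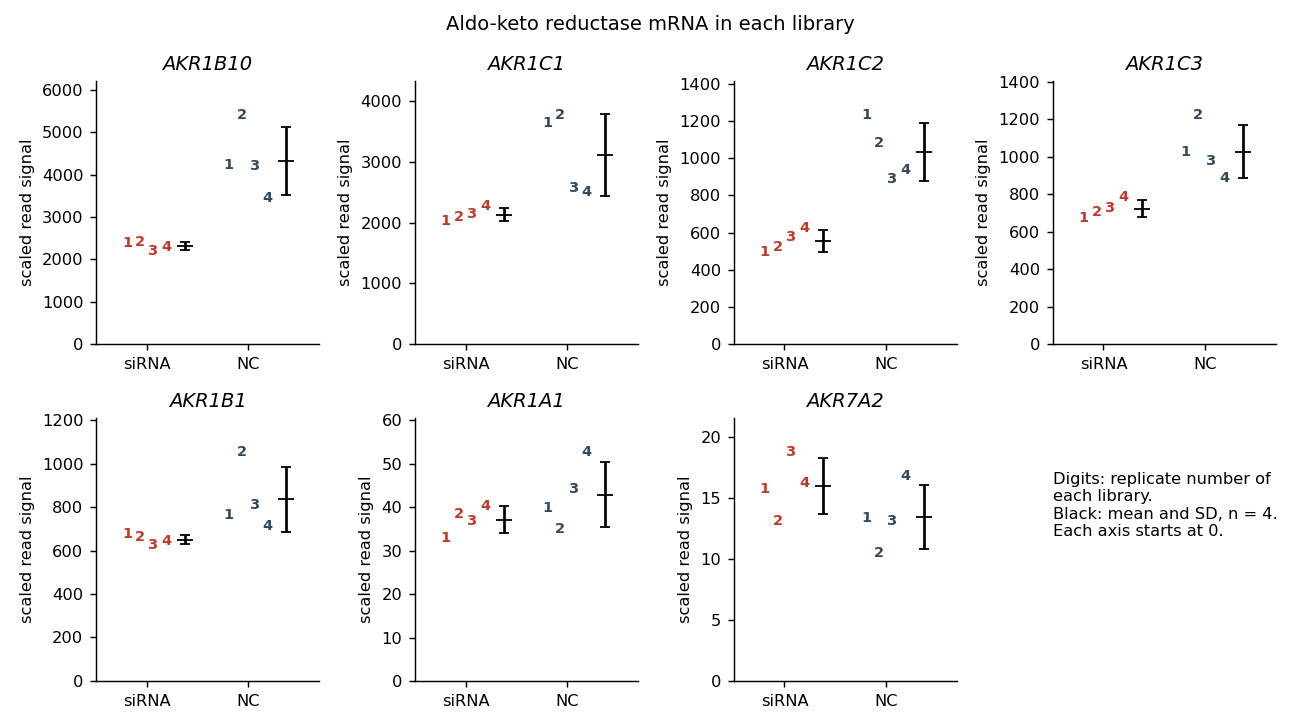
Scaled read signal (vertical axis, starting at 0) of the 7 aldo-keto reductase genes in each library, with siRNA libraries on the left and NC libraries on the right of each panel; digits are replicate numbers and black bars the mean and SD of 4 libraries. The siRNA values of AKR1B10, AKR1C1, AKR1C2, AKR1C3 and AKR1B1 all lie below the NC values, and those of AKR1A1 and AKR7A2 overlap them.

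AKR1B10 reduces retinaldehyde and reactive lipid aldehydes. The gene occupies positions 134527592 to 134541408 of chromosome 7 (plus strand) and has 10 coding exons. Its signal was 2388, 2399.8, 2198 and 2291 in siRNA replicates 1 to 4, against 4215, 5395, 4201 and 3450.4 in NC replicates 1 to 4. Every siRNA library was lower than every NC library, and the siRNA values were the more tightly spaced. The means were 2319 ± 94.6 in siRNA and 4315 ± 803 in NC libraries (SD, n = 4 each), 1.86-fold lower in siRNA. The log2 change was -0.88 (SE 0.13, limma adjusted p = 0.00111). It passed in every fit that left out a library or an NC pair; the change was -0.72 with the first NC pair (replicates 1 and 2) left out and -1.04 with the second (replicates 3 and 4) left out.

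AKR1B1, the aldose reductase that turns glucose into sorbitol in the polyol route, is the neighbour of AKR1B10, on the minus strand from 134442350 to 134459284. It stood at 676, 661, 625 and 642 in siRNA replicates 1 to 4, against 765, 1054, 812 and 714 in NC replicates 1 to 4. The groups did not overlap, but the NC values were wide apart. The means were 651 ± 22.4 in siRNA and 836 ± 150.5 in NC libraries (SD, n = 4 each). The log2 change of -0.34 (SE 0.12, 95% interval -0.63 to -0.062) missed the threshold (limma adjusted p = 0.0515). It passed without NC replicate 2 (-0.23, limma adjusted p = 0.0490), without NC replicate 4 (-0.42, limma adjusted p = 0.0291), and in edgeR's quasi-likelihood test on the recovered reads (-0.36, adjusted p = 0.0482). The ratio of AKR1B10 to AKR1B1 was 3.56 ± 0.0498 in siRNA and 5.16 ± 0.279 in NC libraries (SD, n = 4 each), with no overlap. This was 1 of 6 comparisons of ratios or shares within the family, and its two-sided exact permutation p of 0.0286, the smallest that 4 against 4 libraries allow, was 0.0429 adjusted over the 6. The adjusted value lies under 0.05 only because several of the 6 reached that smallest p. The permutation treats all libraries as exchangeable, although the NC libraries fell into pairs.

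AKR1C1, a steroid reductase that inactivates progesterone, had a signal of 2019.8, 2091, 2135 and 2271 in siRNA replicates 1 to 4, against 3632, 3761, 2567 and 2505 in NC replicates 1 to 4. No siRNA library reached an NC library, and NC replicates 1 and 2 were well above NC replicates 3 and 4. The means were 2129 ± 106 in siRNA and 3116 ± 672 in NC libraries (SD, n = 4 each), 1.46-fold lower in siRNA, with a log2 change of -0.52 (SE 0.15, limma adjusted p = 0.0224). The call was lost without NC replicate 1 (log2 change -0.44, limma adjusted p = 0.0513) and when siRNA replicate 1, 2 or 3 was left out (limma adjusted p = 0.0640, 0.0593 and 0.0554). With the first NC pair left out the log2 change was -0.25, and with the second left out -0.80; both fits passed (limma adjusted p = 0.00584 and 1.52e-05).

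AKR1C2 reduces dihydrotestosterone, a potent androgen, to a weak one. Its signal was 498, 522, 577 and 627 in siRNA replicates 1 to 4, against 1229.9, 1080.4, 886 and 935 in NC replicates 1 to 4. The lowest NC library was well above the highest siRNA library. The means were 556 ± 57.7 in siRNA and 1033 ± 155 in NC libraries (SD, n = 4 each), 1.86-fold lower in siRNA, with a log2 change of -0.89 (SE 0.13, limma adjusted p = 0.000825). It passed in all 8 fits that left out a library, at log2 changes of -0.96 to -0.80.

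AKR1C3 makes testosterone from androstenedione and prostaglandin F from prostaglandin precursors. It stood at 675, 704, 729 and 786 in siRNA replicates 1 to 4, against 1027, 1222, 978 and 888 in NC replicates 1 to 4. The groups did not overlap. The means were 724 ± 46.8 in siRNA and 1029 ± 141 in NC libraries (SD, n = 4 each), 1.42-fold lower in siRNA, with a log2 change of -0.50 (SE 0.11, limma adjusted p = 0.00736). It passed in all 8 fits that left out a library, at -0.57 to -0.41.

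Summed over AKR1C1, AKR1C2 and AKR1C3, the signal was 3193, 3317, 3441 and 3683 in siRNA replicates 1 to 4, against 5888, 6063, 4431 and 4328 in NC replicates 1 to 4. The sum does not depend on how reads were split among the copies, but it would miss any reads dropped for matching several copies. It too was lower in every siRNA library. The ratio of the means, siRNA over NC, was 0.658, against 0.778 with the first NC pair left out and 0.570 with the second left out. Within the sum, AKR1C2 took 16.3% ± 0.720 in siRNA and 20.1% ± 1.64 in NC libraries (SD, n = 4 each), with no overlap (two-sided exact permutation p = 0.0286, adjusted over the 6 comparisons p = 0.0429). The shares of AKR1C1 (62.5% ± 0.771 in siRNA, 59.9% ± 2.28 in NC libraries) and AKR1C3 (21.2% ± 0.0772 in siRNA, 20.05% ± 1.93 in NC libraries) overlapped between the groups, with exact permutation p of 0.114 and 0.314 (adjusted p = 0.137 and 0.314).

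AKR1A1, an aldehyde reductase that acts on glucuronate, occupies positions 45550543 to 45570049 of chromosome 1 (plus strand). Its signal was 33.0, 38.6, 36.7 and 40.4 in siRNA replicates 1 to 4, against 39.8, 35.0, 44.1 and 52.7 in NC replicates 1 to 4. The groups overlapped, and the log2 change of -0.19 (SE 0.14, 95% interval -0.50 to 0.12) did not pass (limma adjusted p = 0.294). With the first NC pair left out it passed (-0.37, limma adjusted p = 0.0124); with the second left out the change was -0.0096 (limma adjusted p = 0.946).

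AKR7A2, a reductase of succinic semialdehyde and of the dialdehyde of aflatoxin, occupies positions 19303965 to 19312146 of chromosome 1 (minus strand). Its signal was 15.7, 13.1, 18.8 and 16.3 in siRNA replicates 1 to 4, against 13.4, 10.5, 13.1 and 16.8 in NC replicates 1 to 4. The groups overlapped, and the log2 change of 0.24 (SE 0.16, 95% interval -0.13 to 0.61) did not pass (limma adjusted p = 0.267). It was the only one of the 7 genes with a higher mean in the siRNA libraries.

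Per kilobase of the annotated principal transcript, AKR1B10 stood highest in both groups, at 1459 ± 59.5 in siRNA and 2714 ± 505 in NC libraries (SD, n = 4 each). AKR1B1 (462 ± 15.9 in siRNA, 594 ± 107 in NC libraries) and AKR1C3 (400.4 ± 25.9 in siRNA, 569 ± 78.0 in NC libraries) came next, and in the NC libraries they differed by less than their spread. AKR1C1 followed at 318 ± 15.8 in siRNA and 465 ± 100.3 in NC libraries, then AKR1C2 at 148 ± 15.4 in siRNA and 275 ± 41.3 in NC libraries. AKR1A1 (20.4 ± 1.74 in siRNA, 23.6 ± 4.14 in NC libraries) and AKR7A2 (11.7 ± 1.69 in siRNA, 9.87 ± 1.90 in NC libraries) were far lower. The place of AKR1C1 depends on the lengths used. Per kilobase of all annotated exons it came second, at 243 ± 12.1 in siRNA and 356 ± 76.7 in NC libraries. Its length then grew from 6.705 to 8.765 kb, that of AKR1B1 from 1.409 to 3.66 kb and that of AKR1C3 from 1.807 to 4.532 kb.

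The neighbourhood of the AKR1C genes was also examined. Of 24 other genes with a mean signal of at least 5 in the first 10 Mb of chromosome 10, 13 fell, 2 rose and the rest did not pass, with a median log2 change of -0.35. The median centred log2 level of these 24 genes was -0.19, -0.21, -0.17 and -0.21 in siRNA replicates 1 to 4, against 0.18, 0.16, 0.31 and 0.27 in NC replicates 1 to 4. That of AKR1C1, AKR1C2 and AKR1C3 was -0.35, -0.29, -0.26 and -0.17 in siRNA replicates 1 to 4, against 0.51, 0.52, 0.19 and 0.048 in NC replicates 1 to 4. Both were lower in every siRNA library, but within the NC group the AKR1C genes were higher in replicates 1 and 2 and the other genes in replicates 3 and 4. On the whole chromosome 169 of 403 such genes fell and 36 rose, and the median was also -0.35. Of the 4 nearest such genes on each side of the AKR1C cluster, chosen by position, 4 of 8 fell and none rose. They were PFKP, a glycolytic enzyme gene (224 ± 9.31 in siRNA, 448 ± 38.0 in NC libraries), WDR37 (6.70 ± 0.864 in siRNA, 23.7 ± 3.13 in NC libraries), ASB13 (16.0 ± 3.23 in siRNA, 29.7 ± 5.36 in NC libraries) and GDI2 (239 ± 8.29 in siRNA, 316 ± 40.02 in NC libraries), with limma adjusted p from 5.47e-05 to 0.0148. The part of these surroundings in the AKR1C values was not tested.

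**Figure D2:**
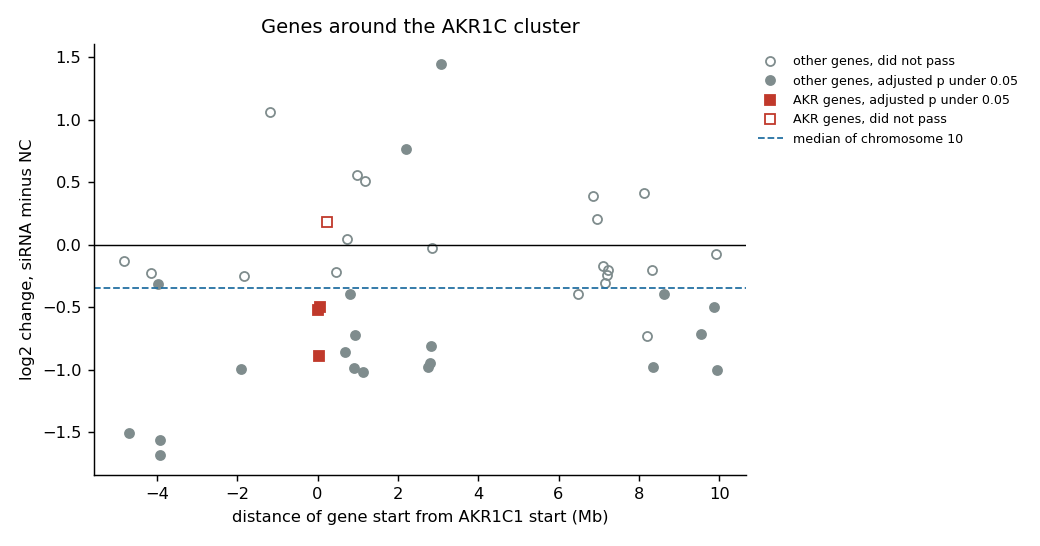
Log2 change, siRNA minus NC (vertical axis), of genes with a mean signal of at least 5 against the distance of their start from that of AKR1C1 (horizontal axis, Mb), up to 10 Mb downstream and to the chromosome end upstream; red squares are AKR genes and filled symbols passed the limma threshold. Most filled symbols lie below 0, near or under the dashed median of chromosome 10 at -0.35.

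When the median of each 10 Mb bin was removed from every library, the log2 change of AKR1C1 was -0.069 (limma adjusted p = 0.759) and that of AKR1C3 -0.044 (limma adjusted p = 0.797), so neither passed. AKR1C2 still passed at -0.43 (limma adjusted p = 0.0282), so that 2 of the 7 genes were called, where 36.6% of all genes tested were. With the medians taken over genes other than AKR genes, which was chosen after seeing the data, 36.6% of all genes were again called, and the changes of AKR1C1, AKR1C3 and AKR1C2 were -0.096, -0.070 and -0.46 (limma adjusted p = 0.696, 0.701 and 0.0381). AKR1B10 stayed at -0.79 and -0.85 in these fits (limma adjusted p = 0.00589 and 0.00464). The 31 other genes in its own bin on chromosome 7 had a median log2 change of -0.016, with 6 lower and 7 higher. On the whole of chromosome 7, 69 of 496 genes with a mean signal of at least 5 fell and 134 rose, with a median of 0.18. Of the 8 nearest genes around the AKR1B cluster 2 fell and 2 rose. Those that fell were the nearest on each side, SLC35B4 at 125 kb (log2 change -0.50) and BPGM at 66.9 kb (-1.27). Those that rose lay farther off, CHCHD3 at 1360 kb (0.83) and PODXL at 2884 kb (1.89). The part of these surroundings in the AKR1B values was not tested.

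The table held 5 further AKR genes. AKR1B15 is a close copy of AKR1B10, with 86.1% of aligned coding columns identical. Its coding sequence is longer (1032 bases, against 948 in AKR1B10) and the extra bases count as differing, so the identity over shared bases was higher. AKR1B15 also fell. Its signal was 98.9, 96.7, 95.4 and 92.7 in siRNA replicates 1 to 4, against 190.2, 249, 199 and 159.7 in NC replicates 1 to 4. The groups were far apart, with a log2 change of -1.03 (SE 0.13, limma adjusted p = 0.000418). AKR1B15 amounted to 4.14% ± 0.144 of AKR1B10 in siRNA and 4.62% ± 0.0919 in NC libraries (SD, n = 4 each), with no overlap (two-sided exact permutation p = 0.0286, adjusted over the 6 comparisons p = 0.0429). None of its 883 coding windows of 150 bases occurred unchanged in a transcript of another gene. That search cannot exclude that reads with mismatches, shorter reads or reads outside the coding sequence were shared with AKR1B10. Whether AKR1B10 reads were counted in AKR1B15 was not tested.

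AKR7A3, a reductase of aflatoxin dialdehyde and a neighbour of AKR7A2, was the only AKR gene to rise. Its signal was 6.45, 7.52, 7.98 and 8.68 in siRNA replicates 1 to 4, against 3.05, 1.35, 2.36 and 2.98 in NC replicates 1 to 4. The groups did not overlap, and the log2 change was 1.36 (SE 0.20, limma adjusted p = 0.000853). At this low signal its size depended on the pseudocount, with 1.67 at a pseudocount of 0.1 and 0.77 at 5 (limma adjusted p = 0.00144 and 0.000457), and the ratio of the means was 3.15. The ratio of AKR7A3 to AKR7A2 was 0.485 ± 0.0799 in siRNA and 0.178 ± 0.0409 in NC libraries (SD, n = 4 each), again with no overlap (two-sided exact permutation p = 0.0286, adjusted over the 6 comparisons p = 0.0429). AKR7A3 alone already separated the groups, so this ratio is not independent support. Of its 844 coding windows of 150 bases, 15 occurred unchanged in AKR7L, so a part of its reads is uncertain.

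AKR1C4, the hepatic steroid reductase of the same cluster, had means of 6.75 ± 0.473 in siRNA and 6.06 ± 2.02 in NC libraries (limma adjusted p = 0.529). AKR1E2 had means of 2.12 ± 0.415 in siRNA and 3.17 ± 0.490 in NC libraries (limma adjusted p = 0.0547), and AKR7L 1.29 ± 0.294 in siRNA and 1.17 ± 0.393 in NC libraries (limma adjusted p = 0.713; SD, n = 4 each). None of these 3 passed. AKR1C4 was called higher with the second NC pair left out (log2 change 0.49, limma adjusted p = 0.0478) and had the opposite sign with the first left out (-0.13). With 10 Mb bin medians removed it was also called higher (0.64, limma adjusted p = 0.0357), and likewise with medians of genes other than AKR genes (0.61, limma adjusted p = 0.0390). AKR1E2 was called lower by DESeq2 on the recovered reads (-0.59, adjusted p = 0.0331) and by limma with the first NC pair left out (-0.50, adjusted p = 0.0464), and stood at 0.031 with 10 Mb bin medians removed (limma adjusted p = 0.891). The related channel subunit genes KCNAB2 (106 ± 4.81 in siRNA, 101 ± 36.1 in NC libraries) and KCNAB3 (2.07 ± 0.625 in siRNA, 1.06 ± 0.823 in NC libraries) did not pass either (limma adjusted p = 0.668 and 0.122). KCNAB2 was called higher with the second NC pair left out (0.50, limma adjusted p = 0.00390) and had the opposite sign with the first left out (-0.24), and KCNAB3 was called higher with the first left out (1.148, limma adjusted p = 0.00136).

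**Figure D3:**
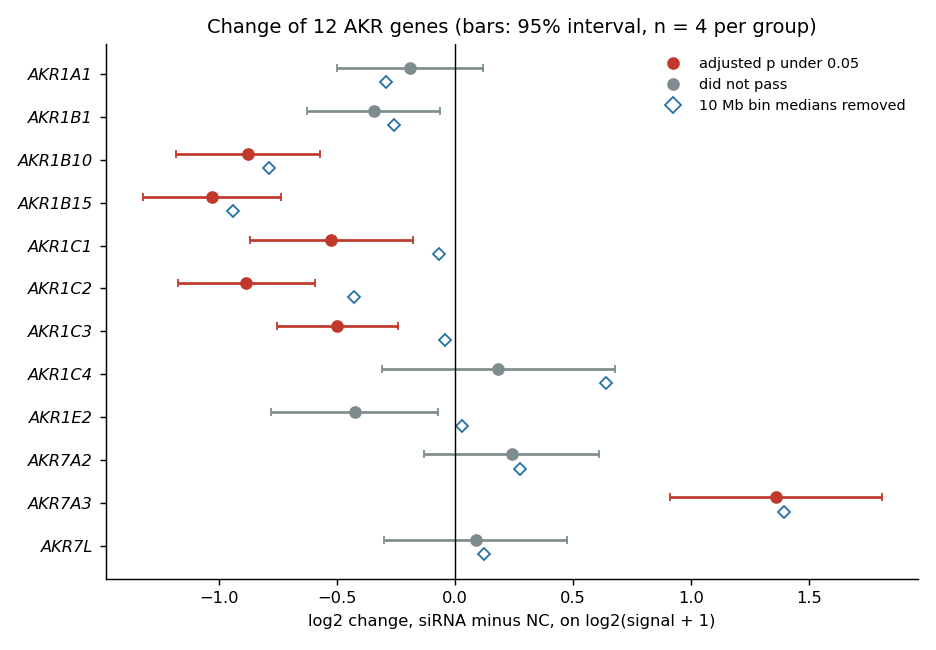
Log2 change, siRNA minus NC (horizontal axis), of 12 AKR genes (rows) with 95% intervals from 4 libraries per group; red circles passed the limma threshold, grey circles did not, and open diamonds show the change with 10 Mb bin medians removed. AKR1C1 and AKR1C3 move close to 0 in the diamonds, while AKR1B10, AKR1B15 and AKR7A3 stay in place.

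By the root mean square difference of centred log2 profiles over the 8 libraries, searched among 10302 other genes, the closest to AKR1B10 were PGD (0.0524), ARHGAP27 (0.0821) and AKR1B15 (0.0841). The closest to AKR1C1 were CDK13, ZMIZ1 and CCSER2 (0.0496 to 0.0560), to AKR1C2 RAB22A, CES1 and HMGB2 (0.0803 to 0.0874), and to AKR1C3 TRIM38, SYVN1 and H1FX (0.0456 to 0.0599). ZMIZ1 and CCSER2 lie on chromosome 10. Among the members themselves AKR1C1 and AKR1C3 were the closest pair, at 0.115, while AKR1C1 and AKR1C2 stood at 0.211.

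Other carbonyl-metabolising genes were read from lists for comparison. Of 21 short-chain carbonyl reductases tested 3 rose and 5 fell (median log2 change 0.070). The quinone and carbonyl reductase genes CBR1 (67.7 ± 1.25 in siRNA, 228 ± 50.1 in NC libraries) and CBR3 (4.96 ± 0.283 in siRNA, 20.8 ± 1.85 in NC libraries) fell. The retinol and steroid dehydrogenase gene DHRS9 (422 ± 69.4 in siRNA, 68.2 ± 26.6 in NC libraries) and DHRS2 (4.51 ± 0.963 in siRNA, 0.123 ± 0.0824 in NC libraries) rose. Of 14 aldehyde dehydrogenases 2 rose and 5 fell (median -0.11), with ALDH1A1, which oxidises retinaldehyde, at 1170.2 ± 219 in siRNA and 2224 ± 345 in NC libraries, ALDH5A1 and ALDH16A1 also lower, and the acetaldehyde enzyme gene ALDH2 higher at 323 ± 10.4 in siRNA and 231 ± 11.1 in NC libraries. Limma adjusted p of these 8 genes ran from 1.49e-05 to 0.00462.

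Of 20 steroid and prostaglandin enzyme genes 6 rose and 4 fell (median 0.12). The steroid sulfatase gene STS (23.4 ± 0.155 in siRNA, 10.2 ± 1.48 in NC libraries), HSD17B2 (7.58 ± 0.787 in siRNA, 2.62 ± 1.07 in NC libraries) and HSD17B14 (33.6 ± 2.19 in siRNA, 18.0 ± 3.75 in NC libraries) rose. PTGS1, a cyclooxygenase gene, fell to 0.544 ± 0.328 in siRNA, against 2.94 ± 1.06 in NC libraries. Of 10 genes listed as polyol, glucuronate and glyoxalase genes 2 rose and 3 fell (median -0.25). GNE (163 ± 10.01 in siRNA, 103 ± 10.8 in NC libraries) and XYLB were higher. The glyoxalase gene GLO1 (131 ± 3.97 in siRNA, 197 ± 18.6 in NC libraries) and GLYR1 were lower. GNE and GLYR1 were on this list but are not enzymes of these routes, so their calls say nothing about them. GLYR1 lost its call when siRNA replicate 2 or 3 was left out (limma adjusted p = 0.0547 and 0.0565). In these fits 3 of the 10 genes of that list passed, where 3853 and 3947 of all 11812 genes did. Limma adjusted p of these 8 genes ran from 0.000174 to 0.0186.

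Of 13 genes that supply NADPH, the cofactor of the family, 2 rose and 3 fell (median 0.011). PGD, of the pentose phosphate route, stood at 1004 ± 55.5 in siRNA and 1749 ± 285 in NC libraries, and IDH2 at 17.9 ± 4.12 in siRNA and 62.4 ± 17.6 in NC libraries. The malic enzyme genes ME2 (78.0 ± 2.80 in siRNA, 54.7 ± 9.08 in NC libraries) and ME3 rose, and ME3 lost its call when siRNA replicate 4 was left out (limma adjusted p = 0.0509). Of 31 NRF2 regulators and targets outside the AKR genes 4 rose and 11 fell (median -0.43). The glutathione reductase gene GSR stood at 199.8 ± 8.89 in siRNA and 361 ± 59.0 in NC libraries, the glutathione peroxidase gene GPX2 at 43.1 ± 12.1 in siRNA and 310.1 ± 164 in NC libraries, and ABHD4 was also lower, while the biliverdin reductase gene BLVRB was higher at 248 ± 15.01 in siRNA and 113 ± 26.6 in NC libraries. Limma adjusted p of these 8 genes ran from 0.000465 to 0.0164. In either direction, the share of each of these lists that passed, 38.1% to 50%, was near the 42.5% of all genes tested. By direction the lists differed more. Of 31 NRF2 genes 11 fell, and of 14 aldehyde dehydrogenases 5, where 20.8% of all genes tested fell. In contrast, 6 of 20 steroid and prostaglandin enzyme genes rose, where 21.7% of all genes tested rose. No list was tested against all genes.

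**Figure D4:**
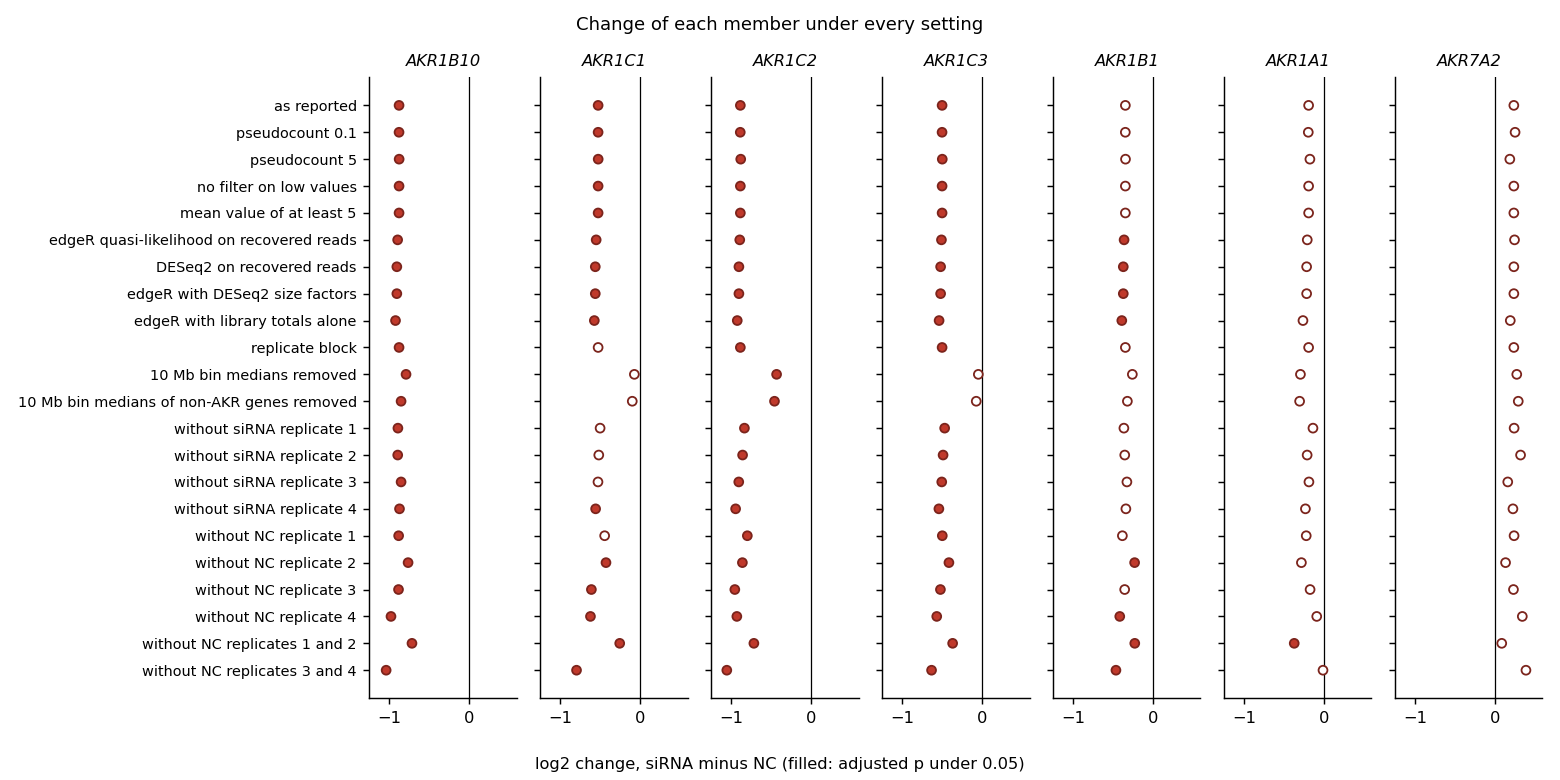
Log2 change, siRNA minus NC (horizontal axis), of the 7 aldo-keto reductase genes (panels) as reported and under each alternative (rows); filled circles passed an adjusted p of 0.05. AKR1B10 and AKR1C2 are filled in every row, and AKR1C1 and AKR1C3 lie near 0 with 10 Mb bin medians removed.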

How the data were processed

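Poly(A) RNA of 4 siRNA and 4 NC libraries of HCCLM3 cells was read with paired ends of 150 bases, per the labels' protocols. The deposited table holds a signal per gene and library whose columns sum to between 912904 and 1082965. No label states its scaling; the values themselves are multiples of a fixed amount per column, and 100% of them came out as whole reads to within 0.02, taking the lowest value of 4 columns as 2 reads. The submitters' processing notes name hg38, HISAT2, HTSeq 0.12.4, Trimmomatic, FastQC, edgeR and DESeq2, with no roles; the use of strand is not given in these sources. Each gene listed exceeds 1 in 3 or more libraries.

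Here limma 3.58.1 (R 4.3.3, trend and robust) was fitted to log2(signal + 1) for 11812 genes that reached a signal of 1 in 4 or more libraries, with group as the only term. Named were all 7 members, up to 4 called genes with the smallest p of each list, other AKR-related genes, and 3 genes of most similar profile. HNF4A, PTK2 and the neighbours by position were added after values were seen. Members and lists were chosen with earlier results of these data known. Alternatives were other pseudocounts and filters, edgeR 4.0.16 and DESeq2 1.42.0 on recovered reads, other scalings, a replicate block, 10 Mb bin medians removed, and libraries left out. The fits were tested on simulated data. The simulated libraries were independent and held no NC pairs, so that test does not show how the fits behave with such pairs. Libraries of a group differed by more than counting noise (chi-square per degree of freedom 8.94 to 445.5), so no pair was counted as 1 library; separate preparations of 1 culture would differ by more than that too. With 390 reads or more per member and library, counting error was small beside the spread between libraries.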

Additional observations from a re-analysis of the deposited data

Results flagged for a closer look

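Among 88 sets of 4 libraries examined, 6 had 1 library far from the other 3 by Dixon's test, and chance flags about 1 in 20 sets; none of them was of the 7 aldo-keto reductase genes. AKR1E2 was 1.496 in siRNA replicate 1, against 2.28 to 2.37 in the other siRNA libraries. AKR7L was 1.73 in siRNA replicate 3, against 1.11 to 1.21 in the others. ALDH16A1 was 33.5 in siRNA replicate 1, against 37.8 to 38.2 in the others. DHRS2 was at 0 in NC replicate 4, and at 0.158 to 0.173 in the other NC libraries. PTGS1 was 4.52 in NC replicate 1, against 2.34 to 2.49 in the others. TF was 13.5 in NC replicate 3, against 22.1 to 23.1 in the others.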

How the results depend on the processing

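Leaving out each library in turn gave 3 to 5 called members and 3853 to 5535 called genes, against 4 and 5015 with all 8. Removing 10 Mb bin medians left 2 called members, AKR1B10 and AKR1C2, also with AKR genes kept out of the medians, while 36.6% of all genes passed. An adjusted p under 0.01 left 3034 genes, and 7782 passed without NC replicates 1 and 2, where 6 members did. The edgeR test on recovered reads called 5001 genes and 5 members. Deviations of same-numbered libraries correlated at -0.063, 0.166, -0.071 and 0.182, and those of differently numbered ones at -0.196 to 0.162. Replicate numbers thus showed no steady pairing, but these correlations cannot settle whether numbers were tied. With a replicate block 4546 genes and 3 members passed (AKR1C1 limma adjusted p = 0.0515). AKR1B10 and AKR1C2 kept their direction and call in all 22 alternatives each, AKR1C3 lost its call in 2 and AKR1C1 in 8. AKR1B1 gained a call in 8 and AKR1A1 in 1. No member changed sign. Of the lists, 15 of 21 carbonyl reductases passed without NC replicates 1 and 2, where 7782 of all 11812 genes did. Without NC replicates 3 and 4, 26 of 31 NRF2 genes and 8 of 13 NADPH genes passed, where 6830 of all 11812 genes did. Of the 7 other AKR-related genes 4 passed with either one of these pairs left out. GLO1, XYLB and ME3 did not pass with 10 Mb bin medians removed (limma adjusted p = 0.431, 0.454 and 0.113). The causes were not tested.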

Other observations

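The spread within the NC group was the larger one for each of the 7 aldo-keto reductase genes. The coefficient of variation of the signal was 3.44% to 14.4% in the siRNA libraries and 13.7% to 21.6% in the NC libraries. AKR1C1 averaged 3696 over the first NC pair (replicates 1 and 2) but 2536 over the second (replicates 3 and 4). For AKR1A1 the order was turned, with 37.4 over the first pair and 48.4 over the second. These differences between NC libraries were not tested.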
